A study of Mus musculus with 8 samples.

Results

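Netrins and Slits are secreted guidance cues, and this account follows the 10 genes Unc5a, Unc5b, Unc5c, Unc5d, Dcc, Ntn1, Slit1, Slit2, Robo1 and Robo2 in the striatum of newborn mice with and without the transcription factor Ctip2. The members were all probe sets whose single gene symbol in the array's annotation is one of these 10 names, which gave 20 of the 45037 probe sets on the array and 10 of the 18193 genes named on it. Every member gene had at least 1 probe set, and no filter on low values was applied. RNA came from punches 500 µm wide through the middle of the developing striatum, cut from coronal slices 300 µm thick at postnatal day 0. The arrays held RNA of 4 Ctip2 null, 1 Ctip2 heterozygote and 3 wild type mice of strain BALB/c, a different animal on each array. No label says which part of the gene the null allele lacks or in which cells. Values are log2 expression per probe set, normalized by the authors with RMA, so a difference of 1 is a doubling of signal.

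Netrin-1, the product of Ntn1, can attract or repel a growing axon depending on the receptors the axon carries. The receptor Dcc mediates attraction, and receptors of the Unc5 family, alone or together with Dcc, mediate repulsion. Slit proteins repel axons and migrating cells through Robo receptors, and binding between Robo and Dcc can silence the response to netrin. In the embryonic forebrain both systems steer thalamocortical axons that cross the developing striatum and migrating neurons that leave the ganglionic eminences. Ctip2, listed under its symbol Bcl11b, is a zinc finger transcription factor that medium spiny neurons, which carry the output of the striatum, need to mature, and the comparison asks which genes differ when it is missing.

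Bcl11b served as a check of the null and wild type labels. Its brightest probe set read 11.13, 11.10, 11.47 and 11.03 in the null arrays, 12.43 in the heterozygote and 12.45, 12.00 and 12.42 in wild type. All 4 Bcl11b probe sets were lower in null striatum, 2.16-fold to 3.16-fold, with no overlap between the groups, and the signal that remained cannot be related to the deleted part. The heterozygote differed from the wild type mean by -0.08 to 0.34 on the 4 probe sets, within the wild type range on 3 and above it on 1, so Bcl11b does not tell this array from wild type and its genotype rests on the label alone. Without wild type 3, or without wild type 1 and null 2 together, 1 of the 4 still passed. Of the medium spiny neuron genes Foxp1 averaged 12.12 in null and 12.34 in wild type arrays, with array medians of 6.21 to 6.35. Pdyn averaged 5.16 in null and 5.55 in wild type, under those medians. On brightest probe sets Ppp1r1b, Drd1 and Pde10a were lower in null, by differences of -1.30, -0.93 and -1.04 (limma adjusted p = 0.0235, 0.0438 and 0.00489). Gad1 was higher, by 1.41 (limma adjusted p = 0.00406), and the other genes of that list did not pass. Of 9 cortical projection neuron genes, 6 averaged under those medians in both groups, among them Tbr1 at 3.13 in null and 3.14 in wild type. The other 3 were above them: Neurod2 averaged 7.32 in null and 7.51 in wild type, Emx1 7.07 in null and 7.35 in wild type, and Cux2 8.33 in null and 8.51 in wild type. Ttr, a choroid plexus transcript, ranged from 7.11 to 13.44 across null arrays and from 9.38 to 13.34 across wild type arrays, highest in null 2 and wild type 1. The SD of log2 values, a measure of array-wide spread, was 1.90 to 2.05 in null arrays, 2.06 in the heterozygote and 1.84 to 1.97 in wild type.

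Among the 20 probe sets, 3 were higher in null striatum at a limma adjusted p under 0.05 and 0 were lower, against 1.87% higher, 0.453% lower and 2.32% in either direction of all probe sets. The 3 belong to 2 receptor genes, Unc5d and Dcc. At an unadjusted p under 0.05, 6 of the 20 member probe sets were higher and 0 lower. Of all 45037 probe sets, 4899 were higher and 3937 lower at that threshold, 19.6% in either direction. Null and wild type arrays did not overlap on 5 of the 20, all higher in null, against 7.70% of all probe sets that were separated in that direction, 8.85% in the other and 16.5% in both together. The median difference over the members was 0.18, against -0.08 over all probe sets. In bulk tissue, more cells that carry a transcript and more transcript per cell cannot be told apart.

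**Figure D1:**
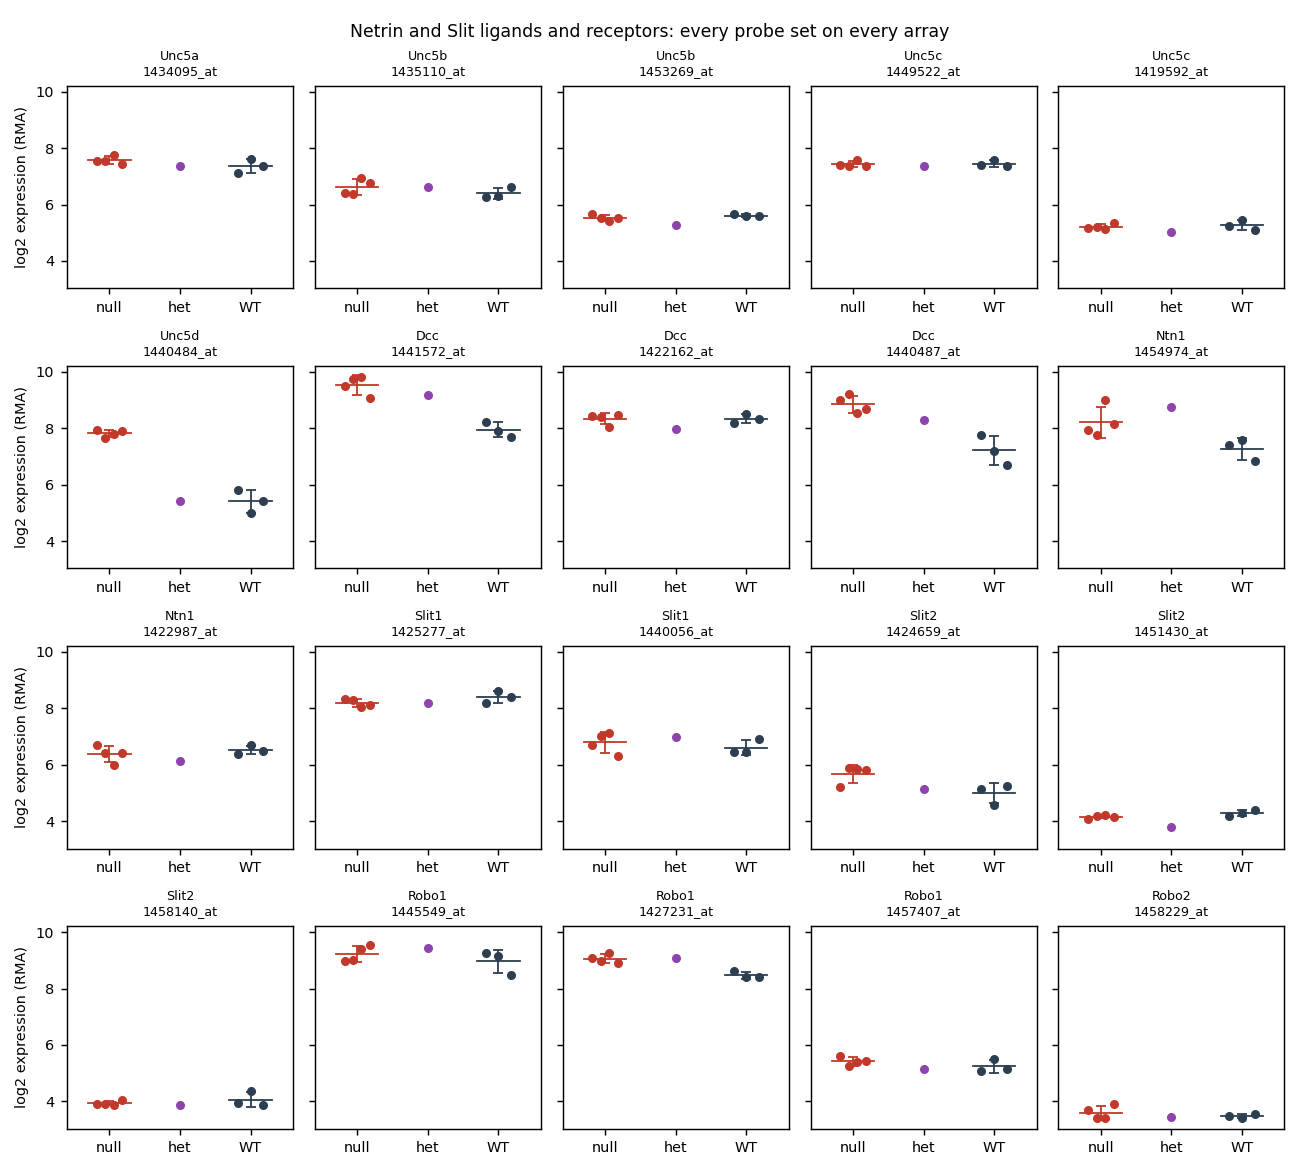
Log2 expression (RMA) of every member probe set on every array, with 4 Ctip2 null arrays (red), the single heterozygote (purple) and 3 wild type arrays (dark), and horizontal lines with bars for mean and SD. The null points of Unc5d lie between 7.64 and 7.93, above all wild type points, whereas those of Unc5a, Unc5b and Unc5c overlap with wild type.

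Of the 4 Unc5 receptor genes, only Unc5d passed in this comparison, and the difference between the genes was not itself tested. Unc5d encodes a netrin receptor that also binds the adhesion protein Flrt2 and marks multipolar cells of the developing cortex. Its single probe set, 1440484_at, read 7.93, 7.64, 7.79 and 7.90 in the null arrays, 5.43 in the heterozygote and 5.81, 4.99 and 5.44 in wild type. The lowest null value was 1.83 above the highest wild type value, and the heterozygote stood among the wild type arrays. The means were 7.82 ± 0.13 (SD, n = 4) in null and 5.41 ± 0.41 (SD, n = 3) in wild type, a rise of 5.30-fold with a 95% confidence interval of 3.97 to 7.06 (adjusted p = 0.000676). By size of rise it ranked 16 and by p it ranked 12 of 45037 probe sets. All wild type values lay below the array medians, and no detection limit was set, so the fold may be imprecise. The call held in 16 of 16 other settings, with differences from 2.19 to 2.66 and adjusted p up to 0.0100. Among these settings, the heterozygote as a group of its own repeats the main fit by construction.

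The other Unc5 receptors stayed within the spread of the arrays. Unc5a, 1434095_at, read 7.53, 7.54, 7.76 and 7.42 in null, 7.35 in the heterozygote and 7.11, 7.60 and 7.36 in wild type. Its difference was 0.21 with an interval of -0.12 to 0.54 (adjusted p = 0.419). Unc5b, which is also a receptor of blood vessels, differed by 0.22 (interval -0.17 to 0.61, adjusted p = 0.458) on 1435110_at and by -0.08 (interval -0.33 to 0.17, adjusted p = 0.677) on 1453269_at. Unc5c, known from a mouse mutant with a malformed cerebellum, differed by -0.01 (interval -0.29 to 0.26, adjusted p = 0.954) on 1449522_at and by -0.05 (interval -0.34 to 0.24, adjusted p = 0.815) on 1419592_at. The intervals of these 5 probe sets all end below the lower bound of Unc5d, 1.99.

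Dcc, the netrin receptor of attracted axons, rose on 2 of its 3 probe sets and not on the third. Probe set 1441572_at read 9.51, 9.76, 9.82 and 9.06 in null, 9.19 in the heterozygote and 8.22, 7.92 and 7.71 in wild type. The null arrays and the heterozygote were all above wild type, and the means of 9.54 ± 0.35 (SD, n = 4) and 7.95 ± 0.26 (SD, n = 3) differed 3.01-fold (interval 2.20 to 4.11, adjusted p = 0.00537). Probe set 1440487_at read 8.99, 9.21, 8.53 and 8.67 in null, 8.31 in the heterozygote and 7.76, 7.18 and 6.71 in wild type, a rise of 3.09-fold (interval 2.11 to 4.53, adjusted p = 0.0117). On this one the heterozygote lay between the groups.

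The third Dcc probe set, 1422162_at, gave 8.44, 8.41, 8.05 and 8.47 in null, 7.97 in the heterozygote and 8.18, 8.51 and 8.34 in wild type. The groups overlapped fully, with means of 8.34 in both, a difference of -0.00 and an interval of -0.33 to 0.33 (adjusted p = 0.998). In the array's annotation this probe set was designed on the RefSeq mRNA of Dcc, whereas the other two were designed on other sequence records. Which transcripts or exons each detects was not tested. As a mean over its 3 probe sets Dcc differed by 1.07 (adjusted p = 0.00435 over genes). With the heterozygote counted among the controls, 1441572_at and 1440487_at had differences of 1.28 and 1.36 and adjusted p of 0.128 and 0.112. Probe set 1440487_at also missed the threshold when the SD of each array entered as a covariate (adjusted p = 0.108) and without wild type 2 (adjusted p = 0.0553), while 1441572_at passed in both (adjusted p = 0.0180 and 0.0284).

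**Figure D2:**
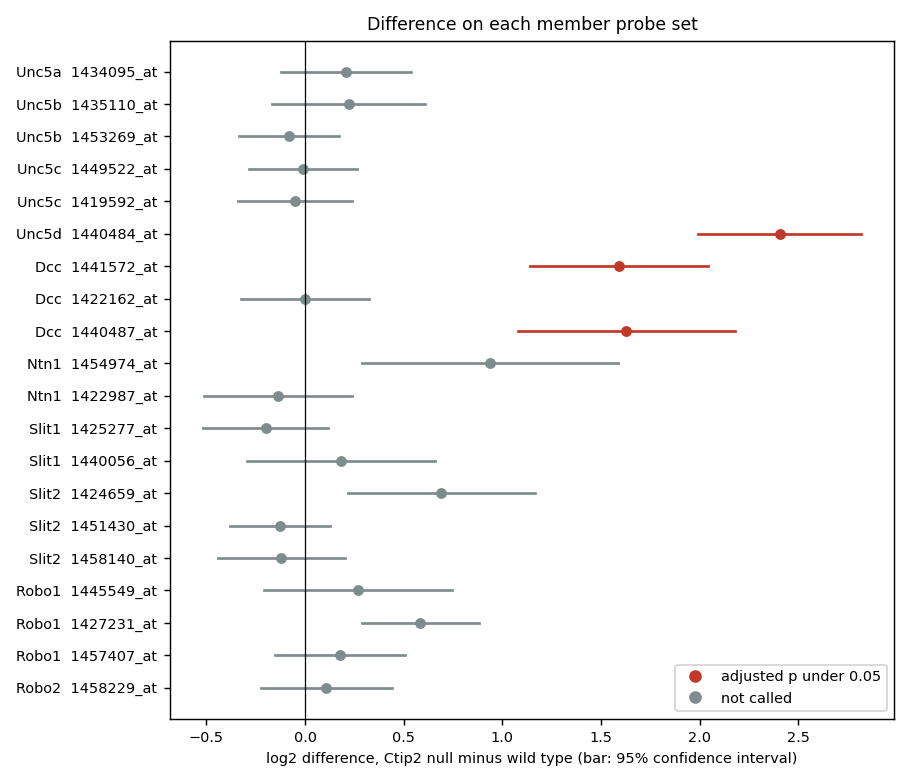
Log2 difference, Ctip2 null minus wild type, on each of the 20 member probe sets, with points for the estimate and bars for the 95% confidence interval; red marks an adjusted p under 0.05. Unc5d at 2.40 and the Dcc probe sets at 1.59 and 1.63 stand to the right, and the third Dcc probe set lies at 0.

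Ntn1, the netrin ligand of both receptor families, did not pass on either probe set. Probe set 1454974_at read 7.94, 7.75, 9.005 and 8.15 in null, 8.74 in the heterozygote and 7.42, 7.57 and 6.83 in wild type. The groups did not overlap, but the closest null and wild type arrays were 0.18 apart, and the heterozygote exceeded all null arrays except null 3. The difference was 0.94 (interval 0.29 to 1.59, adjusted p = 0.136). Null 3 and the heterozygote, highest in Ntn1, also had the widest array-wide spread, with SDs of 2.05 and 2.06. With the array SD as a covariate the difference was 0.75 (adjusted p = 0.587). The other probe set, 1422987_at, designed on the RefSeq mRNA, averaged 6.39 ± 0.28 (SD, n = 4) in null and 6.53 ± 0.15 (SD, n = 3) in wild type, a difference of -0.14 (interval -0.51 to 0.24, adjusted p = 0.629).

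Robo1 came nearest to the threshold among the members that did not pass. This Slit receptor is carried by thalamocortical axons and by interneurons that avoid the striatum. Probe set 1427231_at read 9.08, 8.98, 9.27 and 8.91 in null, 9.08 in the heterozygote and 8.62, 8.41 and 8.40 in wild type. The groups did not overlap, and the heterozygote stood at the null level. The means of 9.06 ± 0.16 (SD, n = 4) and 8.47 ± 0.12 (SD, n = 3) differed by 0.58 (interval 0.29 to 0.88, adjusted p = 0.0536). It passed without wild type 1 (adjusted p = 0.0406), without null 4 (0.0370) and with dim probe sets left out (0.0495), and in 13 other settings it did not pass, with adjusted p up to 0.424. The brighter Robo1 probe set, 1445549_at, overlapped between the groups and differed by 0.27 (interval -0.21 to 0.75, adjusted p = 0.462), and 1457407_at differed by 0.18 (adjusted p = 0.486). Robo2, a second neuronal Slit receptor, read 3.40 to 3.90 in null, 3.44 in the heterozygote and 3.42 to 3.56 in wild type on its single probe set, far under the array medians, with a difference of 0.11 (interval -0.22 to 0.44, adjusted p = 0.668).

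The Slit ligands did not pass either. Slit1, a ligand of the embryonic ganglionic eminence and septum, differed by -0.20 (interval -0.52 to 0.12, adjusted p = 0.420) on 1425277_at, where values were 8.06 to 8.33 in null, 8.18 in the heterozygote and 8.18 to 8.62 in wild type. On 1440056_at it differed by 0.18 (interval -0.30 to 0.66, adjusted p = 0.616). Slit2, a midline repellent, was measured by 3 probe sets of low signal. Probe set 1424659_at read 5.21, 5.90, 5.84 and 5.81 in null, 5.13 in the heterozygote and 5.14, 4.59 and 5.26 in wild type. Here 3 null arrays stood above wild type and null 1 among the wild type values, with a difference of 0.69 (interval 0.22 to 1.17, adjusted p = 0.133). The others, 1451430_at and 1458140_at, lay between 3.79 and 4.39 on all arrays and differed by -0.13 and -0.12 (adjusted p = 0.516 and 0.621).

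**Figure D3:**
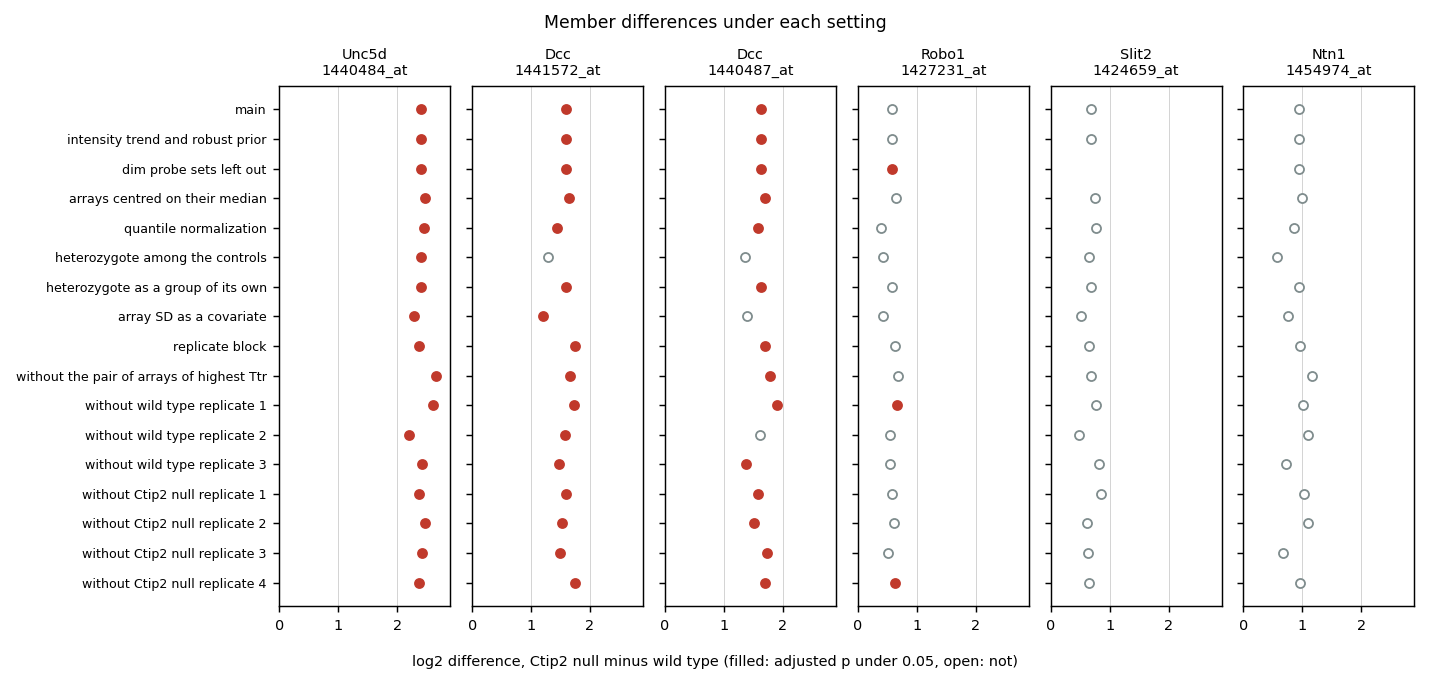
Log2 difference, Ctip2 null minus wild type, on 6 member probe sets under the setting reported and each alternative, filled where the adjusted p is under 0.05 and open otherwise. Unc5d is filled in every row and Ntn1 and Slit2 in none; Slit2 has no point where dim probe sets were left out.

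The heterozygote did not take the same place on every member. On Unc5d it differed from the wild type mean by 0.02, whereas on the Dcc probe sets 1441572_at and 1440487_at it was 1.24 and 1.09 above it, at 0.78 and 0.67 of the distance from the wild type to the null mean. On Ntn1 1454974_at it was 1.47 above and on Robo1 1427231_at 0.61 above, past the null mean in both. These are values of 1 animal with no replicate, and whether the Unc5d and Dcc patterns differ beyond the spread between animals was not tested.

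Other ligands and receptors of the netrin and Slit systems were described from a list of 23 genes with 56 probe sets, chosen with earlier results of these data known. Of these, 6 probe sets of 3 genes were higher, 0 were lower and 50 did not pass in limma, so 10.7% were called against 2.32% of all probe sets. At an unadjusted p under 0.05, 15 of the 56 were higher and 5 lower, and the median difference was -0.04. Of all 45037 probe sets, 4899 were higher and 3937 lower at that threshold, 19.6% in either direction. Dscam, an adhesion protein that acts as a further netrin receptor, rose on 3 of its 5 probe sets. On 1458625_at it read 7.55, 7.61, 7.53 and 7.38 in null, 7.19 in the heterozygote and 6.27, 5.33 and 6.22 in wild type, a rise of 2.98-fold (adjusted p = 0.00774). On this probe set the heterozygote was again nearer to the null arrays. It read 8.58 on 1441082_at, between the groups, and 8.09 on 1449411_at, within the wild type range of 7.64 to 8.10. The probe sets 1441082_at and 1449411_at rose 1.79-fold and 1.81-fold (adjusted p = 0.0224 and 0.0474), 1419293_at differed by 0.43 (adjusted p = 0.200) and 1431801_at by -0.20 (adjusted p = 0.408). With the heterozygote among the controls the adjusted p of 1458625_at was 0.151, and with the SD covariate 0.0641. Probe set 1441082_at passed in 8 and 1449411_at in 4 of 16 other settings; 1441082_at missed without wild type 2 or 3 or null 1 or 2 (adjusted p up to 0.0921), and 1449411_at missed without any 1 array except null 4 (adjusted p up to 0.180).

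Rgmb, a repulsive guidance molecule that binds neogenin, a relative of Dcc, rose on 2 of 6 probe sets. On 1433586_at it read 8.91, 9.18, 9.29 and 8.57 in null, 9.08 in the heterozygote and 7.90, 7.69 and 7.50 in wild type, a rise of 2.44-fold (adjusted p = 0.00935), and on 1442811_at it rose 1.80-fold (adjusted p = 0.0172). The other 4 probe sets differed by 0.22 to 1.04 without passing. The heterozygote stood at the null level on both called probe sets, and with it among the controls their adjusted p was 0.327 and 0.274. Probe set 1433586_at missed without wild type 3 (adjusted p = 0.0572), and 1442811_at without wild type 2 or 3 or null 1 (adjusted p up to 0.0707) and with the SD covariate (0.0983).

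Nell1, a secreted glycoprotein related to the Robo3 ligand Nell2, rose on 1 of 2 probe sets. On 1433787_at it read 7.19, 7.44, 7.81 and 7.33 in null, 7.13 in the heterozygote and 5.56, 6.36 and 4.99 in wild type, a rise of 3.50-fold (adjusted p = 0.0131). Wild type values were spread widely, with an SD of 0.69, and the other probe set, 1447076_at, differed by -0.22 (adjusted p = 0.312). Nell1 missed the threshold with the heterozygote among the controls (adjusted p = 0.196), with the SD covariate (0.110) and without wild type 1 and null 2 together (0.0817).

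Promoter sequences give context for Robo1, the nearest to the threshold of the members with a window used, and for Dscam, shown because it has a motif match. The 10 members, Bcl11b, Nell1, Dscam, Rgmb, Prkca, Srgap1, Usp33 and Appl1 were searched by name, and Usp33 and Appl1 gave no sequence. The sequences are the 250 bases before the annotated start in RefSeq, build GRCm38.p6. Capitals mark TGACCA on either strand, the motif known for the human paralogue BCL11A. Entries were matched by symbol for 6 of the 10 members: Unc5a, Unc5b, Unc5c, Slit2, Robo1 and Robo2. No window of Unc5d, Dcc, Ntn1 or Slit1 was among those used, so the motif was not looked for in these genes.
Robo1 promoter, chr16:72662899-72663148, plus strand: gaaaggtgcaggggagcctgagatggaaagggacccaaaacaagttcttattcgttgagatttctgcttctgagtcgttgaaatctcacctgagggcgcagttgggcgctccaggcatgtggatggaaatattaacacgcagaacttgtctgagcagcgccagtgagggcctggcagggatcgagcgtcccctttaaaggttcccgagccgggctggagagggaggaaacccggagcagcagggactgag
Dscam promoter, chr16:97170736-97170985, minus strand: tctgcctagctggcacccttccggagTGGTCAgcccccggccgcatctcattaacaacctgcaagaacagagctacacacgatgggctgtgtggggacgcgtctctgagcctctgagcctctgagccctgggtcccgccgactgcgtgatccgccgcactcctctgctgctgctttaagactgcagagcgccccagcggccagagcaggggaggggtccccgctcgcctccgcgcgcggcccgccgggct
The Dscam window holds 1 match, TGGTCA, from 224 to 219 bases before the start. No window of Nell1, Rgmb, Prkca, Srgap1 or Bcl11b held a match. The motif was found in 0 of 8 windows of the 6 members and in 11.4% of all 32851 promoter windows of the same length. A match is a description of letters, and no binding data were used.

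Partners inside the cell were described from a second list, with 37 of 41 genes measured on 107 probe sets. In it 1 probe set was higher, 3 were lower and 103 did not pass, and the median difference was 0.17. The share called in either direction, 3.74%, is near the 2.32% of all probe sets, so the values that follow describe single genes and not the list. By direction, 1.87% of all probe sets were called higher and 0.453% lower. At an unadjusted p under 0.05, 31 of the 107 were higher and 4 lower, against 4899 and 3937 of all 45037 probe sets. Differences were positive on 71 of the 107, against 17130 of all 45037. The 3 probe sets called lower are all 3 of Prkca, the kinase PKC alpha, which controls how much Unc5 receptor stays on the cell surface. Prkca 1437393_at read 9.40, 9.48, 9.27 and 9.45 in null, 10.39 in the heterozygote and 10.38, 10.14 and 10.37 in wild type, 1.87-fold lower in null (adjusted p = 0.00761). The heterozygote stood at the wild type level. The probe sets 1450945_at and 1427562_a_at fell 1.54-fold and 1.87-fold (adjusted p = 0.0312 and 0.0399). Probe set 1437393_at passed in 15 of 16 other settings, missing at 0.0529 without wild type 1 and null 2 together. The other Prkca probe sets passed in 6 and 8, with adjusted p up to 0.110 and 0.155 when single arrays were left out, missing without wild type 2 or 3 or null 1 or 2, and 1450945_at also without null 3.

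Srgap1, a GTPase-activating protein that acts below Robo receptors, rose 1.85-fold on 1442175_at (adjusted p = 0.0353). It read 9.61, 9.81, 10.30 and 9.61 in null, 10.01 in the heterozygote and 9.07, 8.95 and 8.81 in wild type, and its other probe set, 1431719_a_at, differed by -0.06 (adjusted p = 0.825). The call held in 8 of 16 other settings and was missed when wild type 2, wild type 3, null 1 or null 2 was left out (adjusted p up to 0.146). On brightest probe sets, the largest differences in the list that did not pass were those of Usp33, a deubiquitinase that binds Robo1, at 1.21 (adjusted p = 0.0545), and Appl1, an adaptor that binds Dcc, at 1.07 (adjusted p = 0.0710); a dimmer probe set of Enah, an actin regulator, differed by 1.27 (adjusted p = 0.113) and was named after its value was seen. On both, as on Srgap1, the heterozygote lay past the null mean and null 3 was the highest null array.

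**Figure D4:**
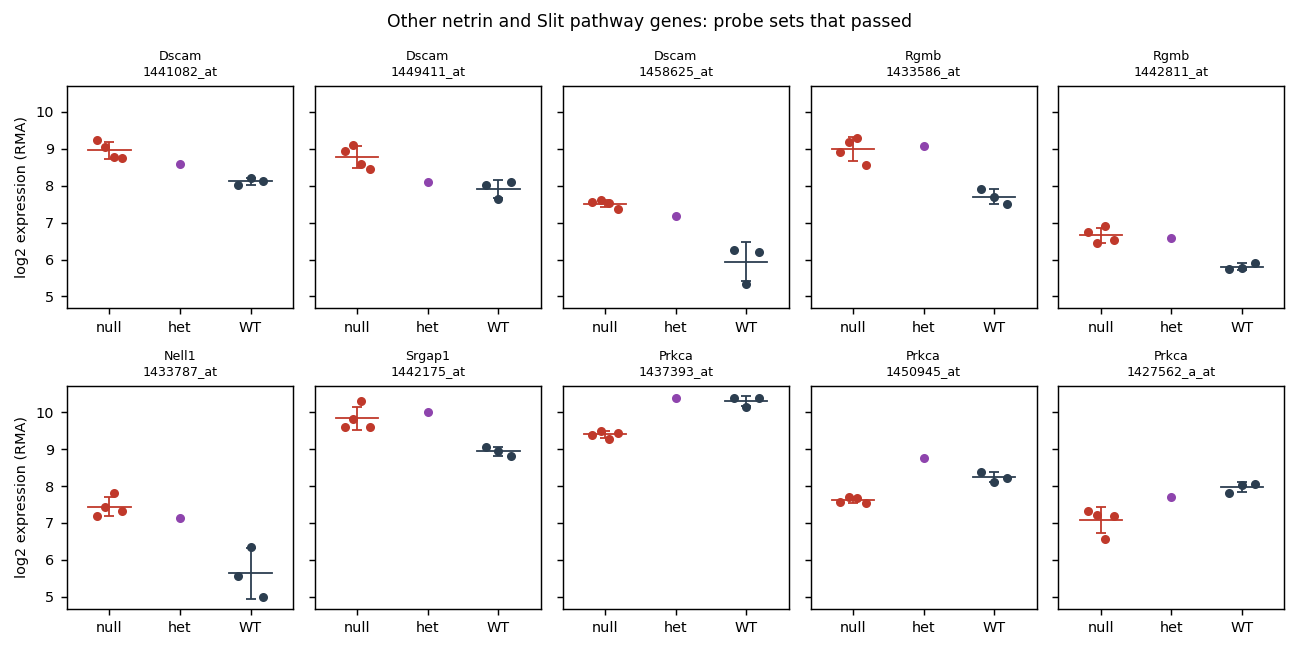
Log2 expression (RMA) of the 10 called probe sets of other pathway genes on every array, in the same colours as the members, with mean and SD. Dscam, Rgmb, Nell1 and Srgap1 are higher in null, and the 3 Prkca probe sets are lower in null with the heterozygote near or above wild type on 1437393_at and 1450945_at.

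The genes most like Unc5d and Dcc in pattern were found by the mean absolute difference of log2 values over the 8 arrays, after subtracting each gene's wild type mean, among 16315 named genes. For Unc5d they were Nts, the precursor of neurotensin, at 0.22, Bcl2l11, a pro-apoptotic protein, at 0.31, and Nefl, a neurofilament, at 0.38. Nts shared its low heterozygote, 0.27 above wild type, whereas Bcl2l11 and Nefl were 1.16 and 0.93 above wild type there. For Dcc 1441572_at they were the phosphatase gene Ppm1e at 0.10, Gad1, a GABA-synthesising enzyme, at 0.13 and the peptidase gene Nln at 0.13, all with a heterozygote 1.25 to 1.26 above wild type. The measure rewards equal size of change, so these genes share the group difference by construction.

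Marker lists were set beside these receptors. Of 9 neural progenitor genes, each on its brightest probe set, Dlx1, Dlx2, Sox2 and Prom1 were higher in null, where 585 of all 18193 genes had any probe set called higher. Nes, Pax6, Mki67 and Top2a had differences of -0.20, -0.30, -0.18 and -0.24 and did not pass. Hes5 differed by 0.51 and did not pass either (limma adjusted p = 0.259). Over the 18 probe sets of the list 9 differences were positive and 9 negative. On brightest probe sets the list's mean level was 7.94 to 8.27 in null, 7.79 in the heterozygote and 7.47 to 7.68 in wild type. Of 10 striatal interneuron genes 2 were higher, and over their 11 probe sets 27.3% were called, against 2.32% of all probe sets. The list means were 7.62 to 7.83 in null, 8.001 in the heterozygote and 7.17 to 7.60 in wild type. Microglial genes averaged 7.10 to 7.62 in null, 6.91 in the heterozygote and 6.93 to 7.02 in wild type, with 0 of 8 called. Cortical projection neuron genes averaged 5.54 to 5.73 in null, 5.42 in the heterozygote and 5.70 to 5.73 in wild type, and choroid plexus genes 5.52 to 6.98, 5.44 and 6.04 to 6.82 in the same order, with 0 called in either list. Over all their probe sets, 1 of 17 in the cortical list was higher and 0 of 12 in the choroid plexus list, against 1.87% of all probe sets. Of the 16 medium spiny neuron genes 1 was higher and 3 were lower on brightest probe sets. Of all 18193 genes, 585 had any probe set called higher and 155 any called lower. Over all 46 probe sets of the list 6 were higher and 7 lower, in 4 and 3 genes. That is 28.3% called, against 2.32% of all probe sets. The list means were 9.66 to 9.80 in null, 10.26 in the heterozygote and 9.57 to 9.82 in wild type. The part of these cell types in the Unc5d, Dcc and Dscam differences was not tested.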

How the data were processed

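RNA from the striatum of 4 Ctip2 null, 1 heterozygote and 3 wild type mice was measured on 1 Affymetrix array per animal. The deposited values are log2 expression per probe set, made by the authors with RMA, as the series' design text and the submitters' processing notes state. Its version was not given in the sources used here, nor was the set of arrays normalized with each other. RMA shrinks differences of low probe sets, and the array-wide spread still differed afterwards. The labels name no batch.

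Values were used as deposited, and the table holds 0 control probe sets. Of 45037 probe sets, 34945 carry 1 gene symbol, 932 several and 9160 none; symbols were updated through gene identifiers to the GRCm38.p6 table, where 204 were not found. Null and wild type arrays were compared with limma 3.58.1 in R 4.3.3 (lmFit, eBayes, 7 arrays, no covariate, Benjamini-Hochberg over all probe sets, threshold 0.05). Confidence intervals use the fit's moderated error. The fit was tested on simulated data. Where 1 value per gene was needed, the probe set of highest mean represented it, giving 18193 genes.

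All 10 members were named on every probe set, and from the other lists each gene with a called probe set (up to 8) and the 2 of largest difference. Members, lists and alternatives were chosen with earlier results of these data known. Same-numbered null and wild type arrays did not deviate together (correlations of -0.25, -0.31 and -0.17). Arrays of unlike number had correlations from -0.42 to 0.37, so this measure cannot show whether the numbers pair animals. The main fit used no pairing. Alternatives were a robust prior with intensity trend, dim probe sets left out, median centring, quantile normalization, 2 uses of the heterozygote, the array SD as a covariate, a replicate block, single arrays left out, and omission of wild type 1 and null 2, highest in Ttr. The heterozygote as a group of its own cannot change the comparison of null and wild type arrays, and the counts of settings include it. Python 3.11.15 with matplotlib 3.10.9 made the figures.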

Additional observations from a re-analysis of the deposited data

Results flagged for a closer look

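The heterozygote array stood above the wild type arrays by more than their whole range on 3 member probe sets. It read 9.19 on Dcc 1441572_at, where wild type arrays read 7.71 to 8.22, 8.74 on Ntn1 1454974_at, where they read 6.83 to 7.57, and 9.08 on Robo1 1427231_at, where they read 8.40 to 8.62. This animal enters no test, and it has no replicate. Its Bcl11b signal was 12.43 on the brightest probe set.

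One null array stood apart from the other null arrays on 2 of the 20 member probe sets, and chance alone does so in about 1 in 20 groups. On Dcc 1422162_at the gap between null 3, at 8.05, and the next null array took 0.841 of the range of the null arrays. On Slit2 1424659_at the gap between null 1, at 5.21, and the next null array took 0.865 of that range, and without null 1 the difference was 0.85 (adjusted p = 0.0837).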

How the results depend on the processing

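The number of member probe sets that were higher was 3 and stayed between 2 and 4 under every alternative run except the heterozygote among the controls, where it was 1 (Unc5d), and 2 to 4 with single arrays left out; 0 were lower under each. Unc5d kept its call throughout, and changes for Dcc and Robo1 are given with those genes. Of other pathway probe sets, 7 higher became 0 with the heterozygote among the controls, 1 with the array SD as a covariate, 19 with the replicate block, 2 without wild type 1 and null 2 together, and 2 to 19 with single arrays left out: 14, 3 and 2 without wild type 1, 2 and 3, and 3, 4 and 19 without null 1, 2 and 4. The 3 lower ones became 1 after median centring, 1 with the heterozygote among the controls, 0 without wild type 1 and null 2, and 1 to 3 with single arrays left out (1 without wild type 2 or 3 or null 1 or 2). Bcl11b kept 4 lower probe sets except 1 without wild type 1 and null 2, and 1 to 4 with single arrays left out (1 without wild type 3). The replicate block, in which null 4 has no partner, changed no member's call. Signs turned on members that passed in no setting. With median centring these were Unc5c 1419592_at (0.0083), Unc5c 1449522_at (0.048) and Dcc 1422162_at (0.060). With quantile normalization they were Unc5c 1419592_at (0.037) and Unc5b 1453269_at (0.0040). With the heterozygote among the controls they were Unc5c 1419592_at (0.0092) and 1449522_at (0.0071), Unc5b 1453269_at (0.0074) and Dcc 1422162_at (0.092). With the SD covariate they were Unc5c 1419592_at (0.045), Dcc 1422162_at (0.195), Ntn1 1422987_at (0.059), Slit1 1440056_at (-0.079) and Slit2 1458140_at (0.012), and with the replicate block Unc5c 1449522_at (0.011). With single arrays left out the ranges were -0.13 to 0.046 and -0.067 to 0.057 on Unc5c 1419592_at and 1449522_at, -0.083 to 0.10 on Dcc 1422162_at and -0.22 to 0.030 on Slit2 1458140_at. The cause of these changes was not tested. The number of arrays and the lack of a detection limit for Robo2 and Slit2 limit what can be seen.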

Other observations

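Of pathway genes that did not pass, named after their values were seen, Nell2, a ligand of Robo3, differed by -0.60 on 1423560_at (adjusted p = 0.125), averaging 8.84 ± 0.34 (SD, n = 4) in null and 9.44 ± 0.11 (SD, n = 3) in wild type with no overlap, and by -0.18 on 1423561_at (adjusted p = 0.603). Rgma, another repulsive guidance molecule, averaged 7.92 ± 0.46 (SD, n = 4) in null and 7.15 ± 0.13 (SD, n = 3) in wild type on 1438241_at, a difference of 0.77 (adjusted p = 0.121), without overlap.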
